A study of Mus musculus with 51 samples.

Results

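The measurements described here are within-area contrasts between neurons and the supporting cells beside them in the mouse cochlea, taken with GeoMx, a spatial method that counts probes for many transcripts in chosen regions of a tissue section. A pair was formed wherever a region of neurons and a region of supporting cells carried the same captured-area name. That gave 22 pairs, of which 21 were used, 7 from noise-exposed and 14 from mock-exposed animals, so 42 of the 51 deposited regions entered. In noise area 6 every gene of the neuron region had the same value, and that pair was left out. A further 5 neuron regions after noise and 2 after mock had no supporting-cell partner. All animals were male CBA/CaJ mice of 16 weeks, 5 per treatment, and fresh-frozen cochlear sections were 6 µm thick. The noise group received broadband noise of 100 dB SPL for 2 h and the control group a mock exposure. The sample titles add 4 h after the exposure, whereas the design text has the animals killed at its end, so the time of collection is not settled by the sources used here. The title of the series names a heat-shock activating compound, TRC-051384, but no region used here is labelled as having received it. The labels do not tie regions to animals. There are more captured areas (14 mock) than animals (5), so some areas come from the same animal and every p-value below, computed over areas, is too small. The sources used here name no slide or scan, and the prefixes of the area names follow the treatment, so a batch that followed treatment could not be told apart from it. The extraction protocol in the labels describes an NEBNext library made from 1 µg of total RNA, which is not probe counting, so how the values were made is not settled by the sources used here.

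As background, spiral ganglion neurons carry signals from the inner hair cells to the brainstem. Their axons are filled with neurofilaments and their cell bodies and axons are wrapped by satellite glia and Schwann cells, which make compact myelin from membrane proteins such as Pmp22 and from lipids whose transport involves apolipoproteins. Loud sound can damage the synapses between hair cells and these neurons before any cell is lost, and heat-shock chaperones are among the genes known to respond to noise in the cochlea. A paired contrast asks how far a transcript is partitioned to the neuron region within one piece of tissue. The comparison of noise with mock asks whether that partition differs. A contrast can differ because the neuron region, the supporting region or both differ, and each is given below where it bears on a value. In regions that hold many cells, fewer cells of a type and less RNA per cell cannot be told apart.

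The deposited values are scaled to one upper quartile in every region and step in whole multiples of what 1 read is worth, which returned the read counts. Recovered reads per used region ran from 10147 to 58022 in mock neurons, from 12792 to 88156 in noise neurons, from 9607 to 22926 in mock supporting cells and from 11770 to 25605 in noise supporting cells. The smallest entry was 1 read, and the median share of genes at 1 read was 23.1% in the neuron regions of mock and 9.80% in those of noise animals, against 51.6% and 43.2% in the supporting regions. Neuron regions were therefore deeper than their partners, by 0.93 ± 0.54 (SD, n = 14) on the log2 scale after mock and 1.02 ± 0.87 (SD, n = 7) after noise (exact permutation test over 116280 splits of the pairs, two-sided, p = 0.758, adjusted p = 0.831 over 4 such quantities). A gene at 1 read in both regions had a contrast of -0.35 ± 0.22 (SD, n = 14) after mock and -0.33 ± 0.35 (SD, n = 7) after noise. The negative probe had -0.31 ± 0.16 (SD, n = 14) and -0.24 ± 0.16 (SD, n = 7). The mean over olfactory receptor genes, whose known site of expression is the olfactory epithelium, was -0.23 ± 0.08 (SD, n = 14) after mock and -0.11 ± 0.06 (SD, n = 7) after noise. That last quantity differed between treatments (difference 0.12, exact permutation test, two-sided, p = 0.00322, adjusted p = 0.0129), with p too small for the shared animals.

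The region types differed in their markers. The summed signal of 20 neuron markers had a median of 347 in mock neuron regions and 104 in their supporting regions, and of 285 and 118 after noise. For 14 Schwann and satellite glia markers the medians were 61.7 in neuron and 162 in supporting regions after mock, and 45.3 and 85.0 after noise. Supporting regions thus held neuron transcripts and neuron regions held glial ones in both treatments. The defining markers of organ of Corti supporting cells were represented by 2 of 13 genes, whose summed median after mock was 3.43 in the supporting and 4.16 in the neuron regions, so the supporting-cell label could be checked against glial markers and hardly against organ of Corti markers. Macrophage markers (2 of 12 listed) had medians of 3.64 after mock and 3.12 after noise in the supporting regions, and the 1 of 7 blood markers listed had 2.34 and 1.56. In supporting regions these sums rested on medians per gene of 1.25 and 2 reads for macrophage and 1.5 and 2 for blood markers. The organ of Corti genes had 1.5 there after mock and 2.75 in neurons. The negative probe had a mean signal of 1.54 and 1.43 in supporting regions. All 3 sets were therefore near background and do not show whether those cells were present. All hair cell markers listed, 5 of 12, summed to medians of 20.8 and 20.6 in mock and noise neuron regions and to 13.3 and 12.5 in the supporting regions. Those 5 include Pvalb, which spiral ganglion neurons also express.

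After mock exposure, 14 of 24 synaptic vesicle genes tested were called on the neuron side and 9 of 12 Schwann and satellite glia markers on the supporting side. Among 4686 genes tested, 920 (19.6%) had a contrast different from 0 (limma on paired log2 differences, adjusted p below 0.05 by Benjamini-Hochberg), 653 (13.9%) on the neuron side and 267 (5.7%) on the supporting side. The 267 included 37 of the 464 olfactory receptor genes tested, and the 653 included 0. A gene at 1 read in both regions had a mean contrast of -0.35 after mock, which is itself on the supporting side. Calls of low-read genes on that side therefore need not reflect the cells. After noise the same test called 277 genes (5.91%), 242 (5.16%) on the neuron side and 35 (0.747%) on the supporting side. The 35 included 1 olfactory receptor gene. With 7 pairs against 14 the noise test has less precision, so these counts do not compare sizes. The split of calls moved with the scaling, to 1092 higher and 67 lower after mock with the negative probe subtracted. With TMM scaling of the recovered reads it was 539 and 444 after mock and 172 and 58 after noise. Without noise area 7 the noise count was 181, and with the pair means of olfactory receptor genes added to the model it was 140. In 63 genes (1.34%) the neuron region was higher in all 21 pairs. They included all 3 neurofilament genes Nefl, Nefm and Nefh, the calcium-binding protein genes Calb2 and Pvalb, the vesicle fusion genes Snap25 and Cplx1, the motor genes Kif1a and Kif5a, and the sodium pump gene Atp1b1. In 13 genes (0.277%) the neuron region was higher in no pair, among them Apod, Cnp, Coch, Cryab, Glul, Gpm6b, Igfbp4, Jam3, Lrp4, Pmp22 and Tns1, of which Cnp and Pmp22 encode myelin proteins.

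The contrasts of both treatments ran together across genes. Pearson's r between the mean mock and mean noise contrast was 0.698 (Spearman's rho 0.576) over all genes tested and 0.832 over the 752 genes with a mean of at least 5 reads, as a description across genes, which are not independent replicates and share each region's depth. Of the 277 noise calls, 233 (84.1%) were also mock calls, which is 25.3% of the mock calls, and 0 of them had opposite signs. Among the 653 mock calls on the neuron side, 514 had a smaller contrast after noise, and the median contrast was 0.79 after mock and 0.61 after noise. Among the 267 on the supporting side, 238 were smaller, with medians of -0.59 and -0.23. Genes chosen by their mock contrast are biased toward a larger value there, and the noise calls show the opposite bias. Of the 242 noise calls on the neuron side 123 were smaller after noise, with medians of 1.13 after mock and 1.05 after noise, and of the 35 on the supporting side 6 were smaller, with medians of -0.63 and -0.93.

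**Figure D1:**
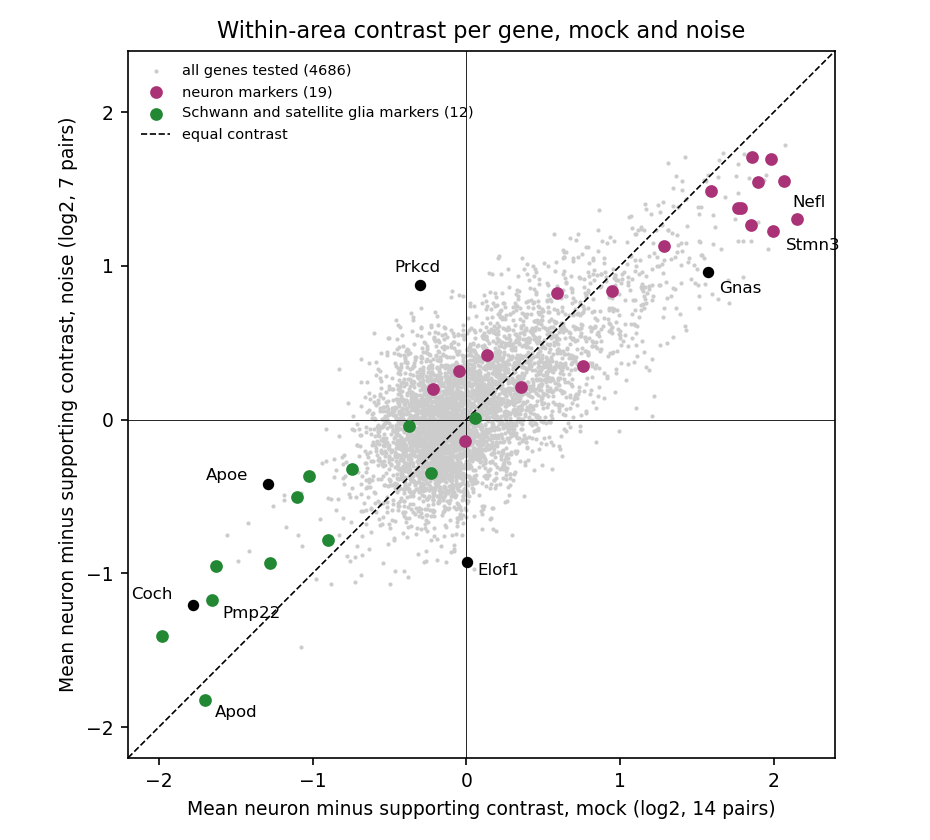
Mean neuron minus supporting contrast of each gene (log2 of the value plus 1) after mock (x axis, 14 pairs) and after noise (y axis, 7 pairs). Grey points are all 4686 genes tested, coloured points the 19 neuron and 12 glia markers tested, black points further named genes, and the dashed line marks equal contrasts. Most neuron markers on the right lie under the line (Nefl at 2.15 and 1.30) and most glia markers on the left lie above it (Pmp22 at -1.65 and -1.17).

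Each pair can also be read as 1 value. Its contrasts over the 752 genes of at least 5 reads were regressed on the mean mock contrast, computed without that pair where it was a mock pair. The line was forced through the origin. Because these genes had a median mock contrast of 0.57, an offset shared by all genes of a pair also enters its slope. The slope was 0.943 ± 0.172 (SD, n = 14) in mock pairs, with a lowest of 0.608, a median of 0.947 and a highest of 1.20. In noise pairs it was 0.772 ± 0.163 (SD, n = 7), with a lowest of 0.580, a median of 0.761 and a highest of 1.08. The groups overlapped widely. The noise pair with the highest slope was area 7, and both lowest noise values were areas 10 and 12, in which the neuron region was no deeper than about its partner. Mock areas 4, 10 and 16, with the same lack of extra depth, also had slopes under the mock median. Deeper neuron regions did not always go with a higher slope. Noise areas 3, 4 and 8, with the largest noise log2 read ratios (1.75, 1.72 and 1.78), had slopes of 0.741, 0.761 and 0.790. Mock area 18 had a slope of 0.794 at a log2 read ratio of 1.02. The part of depth in the slopes was not tested.

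**Figure D2:**
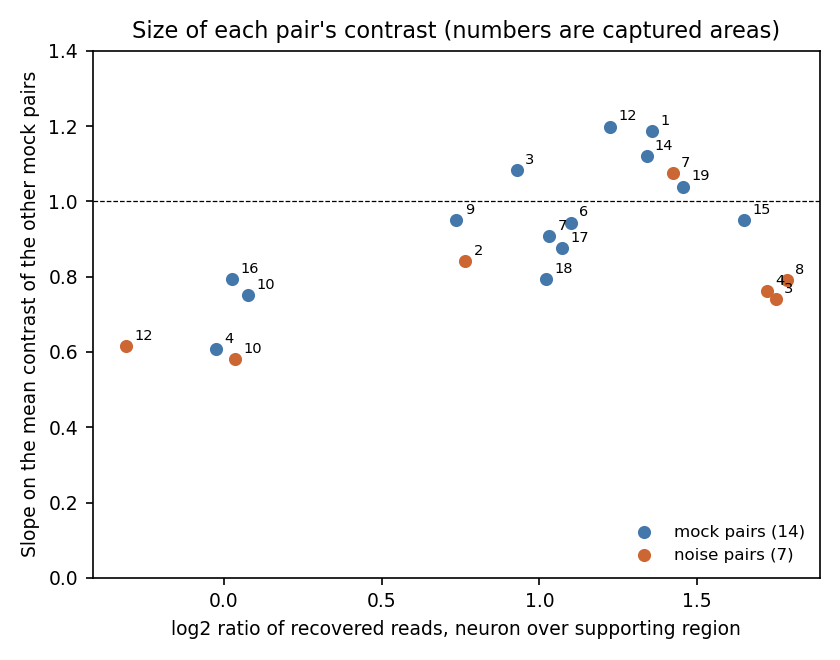
Slope, through the origin, of each pair's contrasts on the mean contrast of the other mock pairs (y axis, 752 genes). The x axis is the log2 ratio of recovered reads between neuron and supporting region. Points are pairs, blue for mock (14) and orange for noise (7), with captured-area numbers. The slopes run from 0.608 to 1.20 in mock and from 0.580 to 1.08 in noise pairs. Pairs near a log2 read ratio of 0 are low in both treatments, and noise areas 3, 4 and 8 at the largest noise ratios have slopes of 0.741, 0.761 and 0.790.

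No gene passed the test for a difference between the noise and mock contrasts. The smallest adjusted p was 0.566 (limma, 4686 genes, Benjamini-Hochberg). Without adjustment, 276 genes (5.89%) had a p below 0.05, with 174 (3.71%) higher and 102 (2.18%) lower after noise. The count models gave different numbers, edgeR's quasi-likelihood test on the recovered reads calling 2 genes, Prkcd and Papolb, and DESeq2 calling 0, with 189 and 92 genes at an unadjusted p below 0.05. The median difference over all genes was 0.04, with 90% of genes between -0.52 and 0.60, and the median standard error of a gene's difference was 0.33. In 0 genes did the 7 noise pairs all lie above or all below the 14 mock pairs. The genes below are therefore described by their values and intervals, and none of their differences between treatments counts as a call. The limma fit took each gene's spread wholly from genes of similar signal. Its SEs, intervals and p-values therefore do not reflect how much that gene's own contrasts varied over pairs. Where an exact permutation p is given, it is over 116280 splits of the pairs (38760 for Elof1, which had 6 noise pairs), two-sided and unadjusted, and the gene was named by its rank in the same data or by a list, so it adds no independent support. Every such p is too small because areas share animals.

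Among the cytoskeletal genes Nefl, the neurofilament light chain gene on chromosome 14 (68083863 to 68089095, GRCm38), had the lowest p of those with a lower contrast after noise. In mock neurons its signal was lowest at 33.8, with a median of 51.1 and a highest of 92.8, and in the paired supporting regions 4.16, 9.88 and 20.3. In noise neurons the lowest, median and highest were 18.7, 39.8 and 52.0, and in the paired supporting regions 7.28, 18.7 and 22.6. Neuron regions were higher in all 21 pairs, the noise neuron values overlapped the lower part of the mock range and went below it, and the noise supporting values overlapped the mock ones with a higher median. The contrast was 2.15 (SE 0.14) after mock, from 1.34 to 3.34, and 1.30 (SE 0.20) after noise, from 0.96 to 2.04. The difference was -0.84 (SE 0.24, 95% interval -1.31 to -0.38), with an unadjusted exact permutation p of 0.00133 and a limma adjusted p of 0.566. The neuron side contributed -0.42 and the supporting side 0.42 on the log2 scale, so the mean was lower in neurons and higher in supporting cells by about the same amount. Stmn3, which encodes a tubulin-binding stathmin, had a contrast of 2.00 (SE 0.17) after mock and 1.23 (SE 0.24) after noise, a difference of -0.77 (95% interval -1.34 to -0.20, limma adjusted p = 0.666). Its neuron signal was 31.4 ± 11.1 (SD, n = 14) after mock and 24.0 ± 4.25 (SD, n = 7) after noise, and its supporting signal 7.28 ± 3.04 and 9.92 ± 3.09. The motor gene Kif5c stood at 1.80 and 0.93, a difference of -0.87 (SE 0.35). The other neurofilament genes were nearer to equal, Nefm at 1.90 and 1.55 and Nefh at 1.77 and 1.38, with differences of -0.35 (SE 0.27) and -0.39 (SE 0.25). Over 30 axonal and cytoskeletal genes tested, 25 were called on the neuron side after mock (beside 13.9% of all genes). On the supporting side 1, Dynll1, was called after mock (beside 5.7%). After noise 14 of the 30 were called on the neuron side (beside 5.16%). The median contrast was 1.06 after mock and 0.83 after noise, where all genes had -0.04 and 0.06. The difference was below 0 in 24 genes of the list, whereas 2565 of all 4686 genes were above 0. Its median was -0.34 in the list, 0.04 over all genes and -0.07 over all genes of at least 5 reads. A smaller contrast after noise was also seen in 514 of the 653 mock calls on the neuron side, so it was not particular to this list. In the list 3 genes, Nefl, Stmn3 and Kif5c, had an unadjusted limma p below 0.05 and a lower contrast (10.0% beside 2.18% of all genes). Over the 18 other settings the median difference of the list stayed between -0.45 and -0.18. In 29 of the 30 genes the neuron mean was lower after noise (median -0.33), against 20 in the supporting regions (median -0.11). Over all genes these medians were 0.01 and -0.04. The neuron mean was also lower after noise in 51 of 79 ribosomal protein and 49 of 77 respiratory chain genes.

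**Figure D3:**
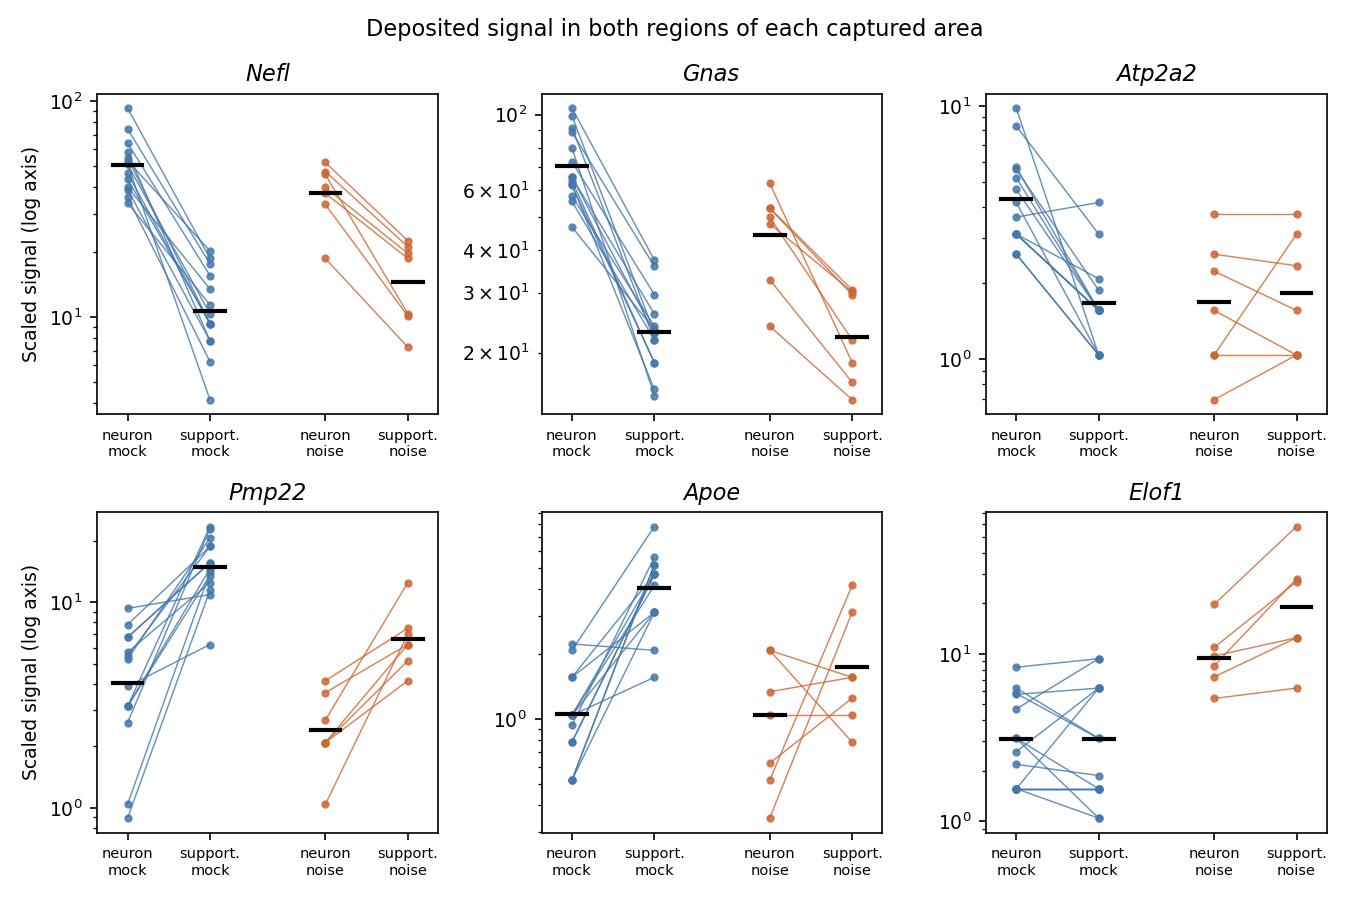
Scaled signal (log axis) of 6 genes in both regions of each captured area, with a line joining the neuron and the supporting region of an area. Blue lines are the 14 mock pairs, orange lines the 7 noise pairs (6 for Elof1), and black bars are means on the log2(value + 1) scale. Nefl and Gnas are higher in neurons in all pairs, Pmp22 is higher in supporting cells in all pairs, and the noise lines of Apoe cross.

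The neuron marker list shares 10 genes with the cytoskeletal list and 4 with the synaptic vesicle list. Of 19 markers tested, 14 were called higher in neurons after mock and 11 after noise (beside 13.9% and 5.16% of all genes). None was called on the supporting side. The median contrast was 1.59 after mock and 1.23 after noise, and 15 of 19 were smaller after noise, beside 514 of the 653 mock calls on the neuron side. In the marker list 4 of 19 had a difference above 0. The median difference was -0.16, from -0.41 to -0.02 over the other settings. Calb2, the gene for the calcium buffer calretinin, had 2.07 and 1.55, a difference of -0.51 (SE 0.34). Thy1, a surface glycoprotein of neurons, had 1.98 and 1.69, a difference of -0.29 (SE 0.29). Map1b had 1.86 and 1.71, where the noise mean rests in part on area 2 (3.53, the other 6 pairs from 0.88 to 1.86). Against the direction of most, Stmn2 had 0.59 and 0.82, and the potassium channel gene Kcna1 had -0.22 and 0.20, a difference of 0.42 (SE 0.35). A mean over the list had a lowest of 0.85, a median of 1.28 and a highest of 1.43 in mock pairs, and 0.67, 0.85 and 1.72 in noise pairs. The highest noise value was area 7, and the other 6 noise pairs, from 0.67 to 1.09, were all under the mock median.

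Synaptic vesicle genes had contrasts on the neuron side in both treatments. Of 24 tested, 14 were called after mock and 7 after noise, all higher in neurons (beside 13.9% and 5.16% of all genes). The medians over the 24 were 0.62 and 0.40. In 18 the difference was below 0, with a median of -0.18 (from -0.41 to -0.10 over the other settings), and 1 had an unadjusted p below 0.05 (4.17% beside 2.18% of all genes). That gene was Syp, which encodes the vesicle protein synaptophysin, at 1.19 after mock and 0.33 after noise, a difference of -0.87 (SE 0.35). Snap25, a component of the fusion complex, had a neuron signal of 24.1 ± 5.98 (SD, n = 14) and a supporting signal of 6.33 ± 3.11 after mock, and 15.2 ± 5.58 (SD, n = 7) and 6.43 ± 3.90 after noise. Its contrast was 1.85 (SE 0.18) and 1.27 (SE 0.26), and the difference of -0.58 (95% interval -1.21 to 0.04) was made up of -0.65 in the neuron mean and -0.07 in the supporting mean. Syn1, a vesicle phosphoprotein gene, had 0.91 and 0.27, with the supporting mean 0.49 higher after noise. Rab3a, the vesicle GTPase gene, went against these with 0.75 and 1.08. Of the glutamate receptor and postsynaptic genes, 5 were tested. On the neuron side 3 were called after mock and 1 after noise (beside 13.9% and 5.16% of all genes). Grin1, an NMDA receptor subunit gene, had 0.97 and 0.30, and Dlg4, the scaffold gene, 1.52 and 1.16. The median difference of these 5 was -0.08 and took either sign over the other settings, up to 0.10.

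Further genes named by their p for a lower contrast after noise were of mixed function. Gnas, which encodes the stimulatory G protein alpha subunit (chromosome 2, 174284320 to 174346744), had a mock neuron signal of 46.8 at the lowest, 65.5 at the median and 104 at the highest, against 23.9, 49.9 and 62.9 after noise. Its supporting signal was 15.0, 22.9 and 37.4 after mock and 14.6, 21.8 and 30.6 after noise. The supporting ranges overlapped, with mock reaching higher, and the noise neuron values ran from below the mock range to just under its median. The contrast was 1.58 (SE 0.11) and 0.96 (SE 0.15), a difference of -0.61 (95% interval -0.98 to -0.24, exact permutation p = 0.00313, limma adjusted p = 0.566), with -0.66 from the neuron and -0.05 from the supporting side. Mdh1, the cytosolic malate dehydrogenase gene, had 1.97 (SE 0.16) and 1.22 (SE 0.22), a difference of -0.75 (95% interval -1.29 to -0.21). Its neuron signal was 36.3 ± 8.46 (SD, n = 14) and 25.1 ± 4.28 (SD, n = 7). Atp2a2, the calcium pump gene of the endoplasmic reticulum, was low in reads, with a median of 5.5 reads in mock neurons and 1 in their partners. Its neuron signal was 4.63 ± 2.17 (SD, n = 14) after mock and 1.84 ± 1.08 (SD, n = 7) after noise, and its supporting signal 1.77 ± 0.88 and 1.98 ± 1.11. The contrast was 0.99 (SE 0.20), higher in neurons in 13 of 14 mock pairs, and -0.07 (SE 0.28), higher in neurons in 3 of 7 noise pairs. That difference of -1.07 (95% interval -1.73 to -0.40) had an unadjusted exact permutation p of 0.000267. Ghitm, a gene for an inner mitochondrial membrane protein, followed the same pattern at 1.11 and 0.08, higher in neurons in 14 of 14 and 3 of 7 pairs, with -0.99 from the neuron side. Atp6v0a1, a subunit gene of the vacuolar proton pump, had 1.22 and 0.16, and Atxn10 had 0.84 and -0.15. The phosphatase gene Inpp4a had 1.21 (SE 0.20) and 0.03 (SE 0.29), and its noise contrasts lay between 0.73 and 1.34 in 4 areas and between -1.63 and -0.47 in 3. The SD of its own contrasts was 0.67 over the 14 mock and 1.17 over the 7 noise pairs, which the fitted SEs do not show. Its difference was -1.18 (SE 0.35, limma adjusted p = 0.566). When only the 5 noise and 11 mock pairs whose neuron region had at least 1.5 times the reads of its partner were kept, a limit chosen after the depths were seen, it was -1.74 (limma adjusted p = 0.0354). That leaves out noise areas 10 and 12, where the contrast was 1.34 and 0.79, and over all alternatives the adjusted p ran from 0.0354 to 0.999. Sh3gl2, Eef1a2 and Atp2b2, named by the noise contrast, had 1.67 and 1.73, 1.43 and 1.71, and 1.81 and 1.73. Prcc and Pdgfc had contrasts of 0.05 and -0.01 after mock and of -0.97 and -0.92 after noise, where the supporting means were 0.79 and 0.62 higher than after mock.

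**Figure D4:**
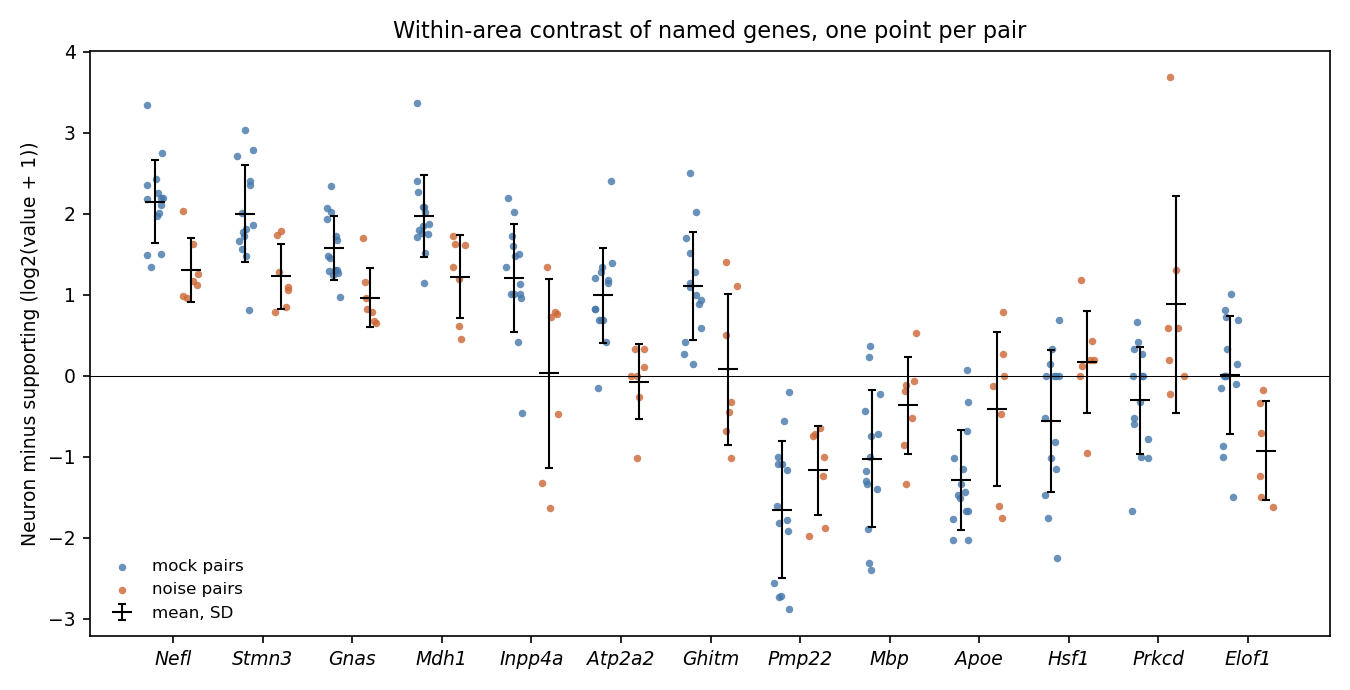
Within-area contrast (neuron minus supporting, log2 of the value plus 1) of 13 named genes, 1 point per pair, blue for mock and orange for noise. Horizontal marks and bars are the mean and SD over pairs. Points of both treatments overlap for every gene, and 1 noise pair of Prkcd stands at 3.68.

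On the supporting side, myelin and glia genes had contrasts nearer to 0 after noise. Pmp22, which encodes a membrane protein of peripheral myelin (chromosome 11, 63128982 to 63159547), had a mock supporting signal of 6.24 at the lowest, 15.1 at the median and 23.4 at the highest, against 4.16, 6.24 and 12.5 after noise. The neuron signal was 4.64 ± 2.51 (SD, n = 14) after mock and 2.54 ± 1.06 (SD, n = 7) after noise. In both region types the noise values overlapped the mock ones and had the lower mean. The contrast was -1.65 (SE 0.20) after mock and -1.17 (SE 0.28) after noise, and supporting cells were higher in all 21 pairs. The difference was 0.48 (95% interval -0.20 to 1.17, exact permutation p = 0.189, limma adjusted p = 0.944). Noise minus mock was -0.57 in neurons and -1.06 in supporting cells on the log2 scale, and the contrast carries only the gap between them. Mbp, the myelin basic protein gene, had -1.02 and -0.37, and Sox10, a transcription factor gene of glia, -1.10 and -0.50. Apod, an apolipoprotein gene of Schwann cells, had -1.70 and -1.83, a difference of -0.12 (95% interval -0.82 to 0.57). Gpm6b, a proteolipid gene, had -1.07 and -1.48, a difference of -0.41 (SE 0.35). Aatk, a kinase gene, had noise minus mock values of -0.83 in neurons and -1.16 in supporting cells, and a difference of 0.33 (SE 0.35). Of 12 Schwann and satellite glia markers tested, 9 were called higher in supporting cells after mock and 5 after noise (beside 5.7% and 0.747% of all genes). The medians over the 12 were -1.06 and -0.64. In 10 of the 12 the contrast was smaller in size after noise, beside 238 of the 267 mock calls on the supporting side. The median difference was 0.38, between 0.26 and 0.50 over the other settings, and 2 of them had an unadjusted p below 0.05 (16.7% beside 3.71% of all genes). The supporting mean was lower after noise in all 12 (median -0.64) and the neuron mean in 11 (median -0.30). These medians were -0.04 and 0.01 over all genes, and 0.07 and 0.20 over olfactory receptor genes. Lower means were not particular to glia genes. Of 79 ribosomal protein genes, 66 were lower after noise in supporting and 51 in neuron regions. Per pair, the mean over the glia list ran from -1.50 to -0.65 with a median of -1.05 after mock. After noise it ran from -0.93 to -0.58 with a median of -0.70, so the noise pairs lay in the upper part of the mock range and beyond. The difference of this list had the sign of the olfactory receptor difference of 0.12 given above, and with the mean over olfactory receptor genes of each pair added to the model its median was 0.31, where all genes had -0.04. The added mean itself differed between treatments, so that model cannot separate it from treatment, and its part in the list was not tested.

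Genes of lipoprotein and cholesterol handling were mostly on the supporting side. Apoe (chromosome 7, 19696244 to 19701310), whose product carries lipid between glia and neurons, had a mock supporting signal of 1.56 at the lowest, 4.68 at the median and 7.80 at the highest, with a median of 3 reads, and 0.78, 1.56 and 4.16 after noise, with a median of 2 reads. Its neuron signal was 1.12 ± 0.55 (SD, n = 14) and 1.15 ± 0.72 (SD, n = 7). The contrast was -1.29 (SE 0.19), with 13 of 14 pairs on the supporting side or at 0, and -0.42 (SE 0.26), with 2 of 7 noise pairs higher in neurons. The difference of 0.87 (95% interval 0.24 to 1.51, exact permutation p = 0.0208, limma adjusted p = 0.663) was made up of -0.88 in the supporting mean and -0.01 in the neuron mean. The neuron regions had a median of 1 read after mock and 2 after noise, at or near the smallest entry of 1 read, so a lower neuron level could not be seen. Lrp1, a receptor for Apoe, had -0.91 and -0.06, a difference of 0.85 (SE 0.33). Hmgcs1, an enzyme gene of cholesterol synthesis, had -0.91 and -0.27. Scd2, a fatty acid desaturase gene, had -0.88 and -1.07. Of 12 genes tested 8 were called higher in supporting cells after mock and 2, Apod and Scd2, after noise (beside 5.7% and 0.747% of all genes). The median was -0.64 after mock and -0.20 after noise. The median difference of 0.29 turned to -0.16 when only genes of at least 5 reads were kept, which leaves Apod (-0.12) and Scd2 (-0.19) alone. Apod is in the glia list too.

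Matrix and fibrocyte genes are described by 5 genes. Coch, the cochlin gene of fibrocytes, had a supporting signal of 9.96 ± 7.55 (SD, n = 14) and 4.47 ± 3.62 (SD, n = 7), a neuron signal of 1.80 ± 1.10 and 1.12 ± 0.41, and contrasts of -1.78 (SE 0.20) and -1.20 (SE 0.29). Otos had -1.07 and -0.48, Ogn -0.64 and -0.24, and Sparc -0.77 and -0.48. Spp1, the osteopontin gene, was the exception on the neuron side at 1.51 and 0.80, a difference of -0.71 (SE 0.28). After mock 4 genes were called on the supporting side and 1 on the neuron side, beside 5.7% and 13.9% of all genes. After noise 1 was called on each, beside 0.747% and 5.16%. The median difference of 0.40 over the 5 genes turned to -0.07 with only genes of at least 5 reads, which leaves Coch (0.57) and Spp1 (-0.71) alone. Of the 3 endothelial and pericyte genes tested, 1 was called on the supporting side in both treatments, beside 5.7% and 0.747% of all genes. That was Rgs5, a pericyte marker, at -0.49 and -1.07. It had a mean of 2.52 reads, and a gene at 1 read in both regions had mean contrasts of -0.35 and -0.33. Pecam1 (-0.11 and -0.38) and Pdgfrb (-0.23 and -0.18) were not called.

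Elof1, which encodes a transcription elongation factor (chromosome 9, 22112986 to 22117195), is a gene whose level was known from earlier results of these data to differ in both region types. Its neuron signal was 1.56 at the lowest, 2.86 at the median and 8.32 at the highest after mock and 5.41, 8.46 and 19.8 after noise. Its supporting signal was 1.04, 2.49 and 9.36 after mock and 6.24, 19.8 and 57.7 after noise, with a missing entry in noise area 10. The means were thus higher after noise by 1.28 in neurons and by 2.29 in supporting cells, and the contrast was 0.01 (SE 0.20) after mock and -0.93 (SE 0.31, n = 6) after noise. All 6 noise pairs with both values were higher in supporting cells, against 8 of 14 mock pairs that were not higher in neurons. The difference was -0.93 (95% interval -1.67 to -0.20, exact permutation p = 0.0140, limma adjusted p = 0.751). Rgs19, a regulator of G protein signalling, had the same arrangement, -0.46 and -0.98, with neuron and supporting means 0.56 and 1.08 higher after noise, and 0 of 7 noise pairs higher in neurons. The lactate dehydrogenase gene Ldhb had noise minus mock values of -0.65 and -1.05, and contrasts of 0.47 and 0.88.

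The heat-shock genes, most of them chaperones and their partners, had differences on both sides of 0. Of 24 tested, 8 were called higher in neurons and 2 in supporting cells after mock, beside 13.9% and 5.7% of all genes. After noise 3 and 1 were called, beside 5.16% and 0.747%. The medians over the 24 were 0.23 and 0.27. The median difference was -0.02 and took either sign over the other settings (from -0.06 to 0.25), 11 genes were above and 13 below 0, and 1 had an unadjusted p below 0.05 (4.17% beside 3.71%). Hsp90aa1, the stress-inducible cytosolic chaperone gene, had a neuron signal of 18.7 ± 4.71 (SD, n = 14) and 13.4 ± 4.71 (SD, n = 7) and contrasts of 1.27 (SE 0.19) and 1.01 (SE 0.26), a difference of -0.26 (95% interval -0.89 to 0.36). Hspa8, the constitutive chaperone gene, had 1.34 and 1.51. Hsp90ab1 had 0.73 and 1.06, and Hsph1, a nucleotide exchange factor of the Hsp70 system, 0.58 and 0.21. Hsp90b1, the chaperone gene of the endoplasmic reticulum, had 0.33 and 0.74, and Hspa5, which acts beside it, 0.34 and 0.28. Cryab, the small heat-shock gene also used as a glia marker, had -1.28 and -0.93, with supporting cells higher in all 21 pairs. Ubb, a ubiquitin gene with 60.9 reads on average, was measured most precisely, at 0.47 (SE 0.11) and 0.37 (SE 0.15), a difference of -0.09 (95% interval -0.45 to 0.26). The gene with the unadjusted p was Hsf1, the transcription factor that drives the heat-shock response. Its supporting signal was 1.04, 3.12 and 6.24 (lowest, median, highest) after mock and 0.78, 1.04 and 3.74 after noise, and its neuron signal 1.64 ± 0.92 (SD, n = 14) and 1.68 ± 0.93 (SD, n = 7). The contrast was -0.56 (SE 0.18) and 0.17 (SE 0.26), a difference of 0.73 (95% interval 0.10 to 1.35, exact permutation p = 0.0658, limma adjusted p = 0.785). With medians of 1 to 4 reads per region this gene is close to the lowest entry the files hold.

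Immediate-early genes were sparsely covered, with 6 of 34 listed and 4 tested, and no gene of them was called in either treatment or for the difference. Zfp36 had -0.45 and -0.31, Maff -0.14 and -0.58, Jund 0.49 and 0.14, and Ppp1r15a -0.28 and -0.35. Ribosomal protein genes, which are abundant in all cells, had contrasts near 0 after mock, with a median of 0.02 over 79 genes, and of 0.17 after noise. The difference was above 0 in 59, with a median of 0.17 (from 0.06 to 0.32 over the other settings), and 5 had an unadjusted p below 0.05, all higher (6.33% beside 3.71%). The olfactory receptor difference of 0.12 had the same sign, and with the olfactory receptor means in the model the median of the ribosomal list was 0.10, where all genes had -0.04. Here too the model cannot separate those means from treatment. Rps26 had 0.20 and 1.05 and Rpl19 -0.32 and 0.55. For the ribosomal list the supporting mean was lower after noise in 66 of 79 (median -0.32) and the neuron mean in 51 (median -0.12). Over all genes these medians were -0.04 and 0.01. Respiratory chain genes were on the neuron side in both treatments, 34 and 17 of 77 called (beside 13.9% and 5.16% of all genes). The medians over the 77 were 0.47 and 0.51, and the median difference of -0.03 took either sign over the other settings. Cox5a had 1.09 and 0.38, and Ndufaf5 -0.02 and 0.80.

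**Figure D5:**
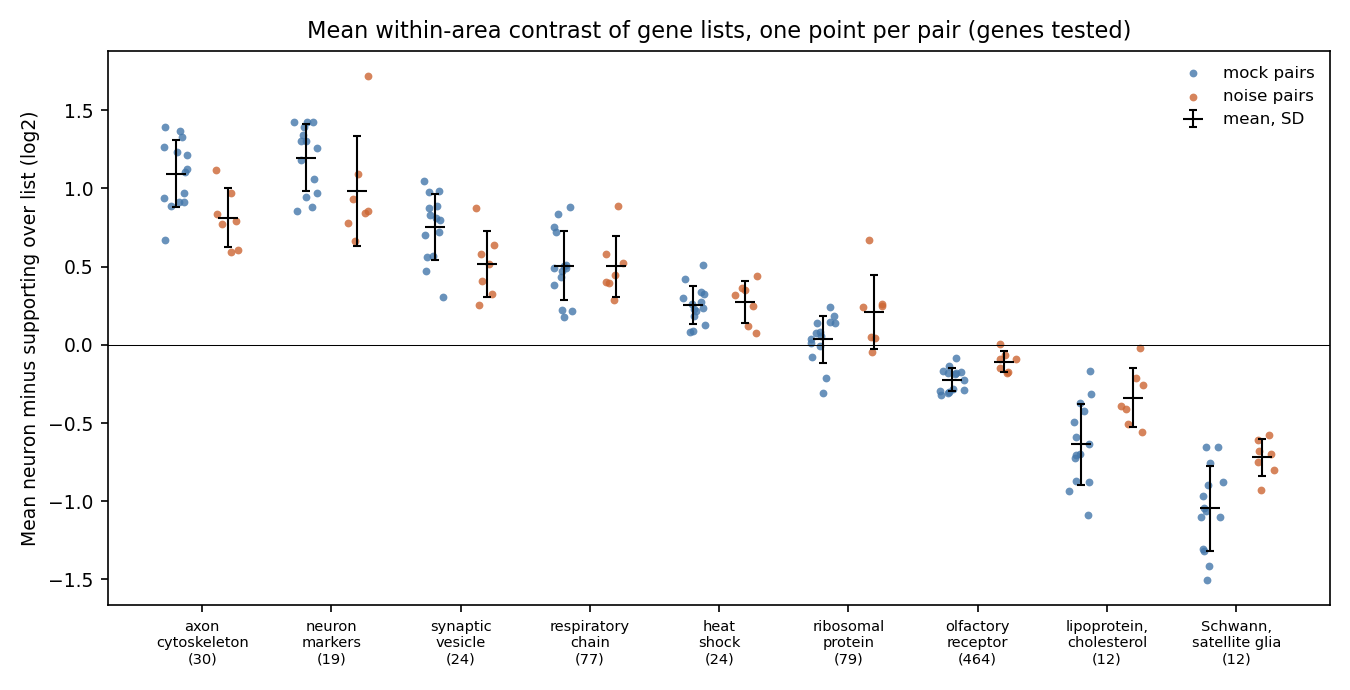
Mean contrast (neuron minus supporting, log2) over the tested genes of 9 lists, 1 point per pair, blue for 14 mock and orange for 7 noise pairs, with mean and SD. The number of genes is under each name. Noise pairs of the glia list lie between -0.93 and -0.58 and mock pairs between -1.50 and -0.65, so their ranges overlap. The heat-shock and respiratory chain means of both treatments overlap too.

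Among genes with a higher contrast after noise Prkcd, which encodes protein kinase C delta (chromosome 14, 30595353 to 30626414), had the lowest p of all genes. Its signal was 0.31 at the lowest, 1.56 at the median and 3.12 at the highest in mock neurons and 1.04, 1.56 and 5.20 in their supporting regions, with a median of 1.5 reads in both. In noise neurons it was 0.52, 2.08 and 27.9, and in their supporting regions 0.78, 1.04 and 1.56. The highest value came from area 8, with 134 reads in the neuron region and 2 in its partner. Contrasts were -0.30 (SE 0.18) and 0.88 (SE 0.26), and the difference was 1.18 (SE 0.31, 95% interval 0.56 to 1.80, exact permutation p = 0.00549, limma adjusted p = 0.566). The fitted standard error is that of genes of similar signal, whereas the SD of the 7 noise contrasts of Prkcd was 1.33 and that of the 14 mock contrasts 0.66. Without area 8 the difference was 0.71 (limma adjusted p = 0.757). With edgeR it was 3.17 (adjusted p = 0.000174), and with only the pairs of at least 1.5 times the reads in the neuron region, the same limit chosen after the depths were seen, 1.61 (limma adjusted p = 0.0354), both including area 8.

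Of the 9 other genes named for a higher contrast, 4 were olfactory receptor genes. Olfr1359 had -0.60 (SE 0.19) and 0.56 (SE 0.27), Olfr1030 -0.44 and 0.62, Olfr1537 -0.50 and 0.53, and Olfr1272 -0.43 and 0.60. Their median reads lay between 1 and 8 in every group. Of the olfactory receptor genes 464 were tested, and they made up 33 of the 174 genes with an unadjusted p below 0.05 and a higher contrast, and 7 of the 102 with a lower one. That was 7.11% and 1.51% of the 464, beside 3.71% and 2.18% of all genes. Their median contrast was -0.22 after mock and -0.10 after noise, with a median difference of 0.12. The ribonuclease gene Rnaset2a had -0.83 and 0.33, Shisal1 -0.68 and 0.40, Ppp1r15b, a gene for a regulatory subunit of the phosphatase that acts on eIF2alpha, -0.51 and 0.53, Prdm16 -0.36 and 0.69, and Oosp2 -0.30 and 0.73. For Rnaset2a the supporting mean was 1.04 lower after noise and the neuron mean 0.12 higher, and for Oosp2 the neuron mean was 0.74 higher and the supporting mean 0.29 lower. With the pair means over olfactory receptor genes added to the limma model, 0 genes passed for the difference and 244 had an unadjusted p below 0.05. The part of the olfactory receptor contrast in the genes named in this paragraph was not tested otherwise.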

How the data were processed

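GeoMx values from 51 regions were used as deposited by the authors. Their signal values are scaled to an equal upper quartile and, per the submitters' processing notes, DRAGEN and the build mm10 (GRCm38) were used; versions, probe-level filters and region masks are not given in the sources used here. Whole reads were recovered from the steps of the signal (99.989% of values whole within 0.01); recovered reads ran from 9607 to 88156 per used region. Entries marked x were missing. All 66 were in supporting regions, 60 after noise (50 in used regions) and 6 after mock, so missing entries followed treatment and region type. For each gene, log2(signal + 1) of neuron minus supporting was taken per area, genes below the first quartile of mean signal (1.859) were dropped, and 4686 were fitted in limma 3.58.1 (R 4.3.3, trend on mean signal) with treatment as the factor. The estimated prior degrees of freedom were infinite, so the variance of each gene was that of the trend at its mean signal. The limma p-values were adjusted over these 4686 genes unless a setting changed the genes tested, those of edgeR and DESeq2 over the 4651 genes they tested, and exact permutation p-values of single genes were not adjusted. A single named gene was also tested by exact permutation over pairs. edgeR 4.0.16 and DESeq2 1.42.0 on recovered reads and the settings in the closing section were alternatives. The script was tested on simulated pairs with 1 dispersion for all genes and changes placed in noise neuron regions. It called 3 of 180 genes changed 2-fold, and 111 of 175 changed 4-fold together with 6 unchanged genes. With no change it called 0. Deviations of both regions of an area from their group means correlated with a median of 0.0235 (lowest -0.00889, highest 0.109) across genes, 1 of 21 above 0.1. The pairing comes from the area names in the deposited table.

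Genes named are the 10 lowest p in each direction for the difference, the 5 largest contrasts in each direction and treatment past an adjusted p of 0.05 (all with a mean signal at or above the median of genes tested, 2.31), a list of genes of interest where tested, and list members past the threshold; list members that did not pass and are named were chosen after their values were seen. Members and lists were chosen with earlier results of these data known. Gene positions are from RefSeq, GRCm38.p6. Results of some genes are not reported here.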

Additional observations from a re-analysis of the deposited data

Results flagged for a closer look

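Of 55 quantities, 2 had a noise pair far from the other 6, by the gap to its nearest neighbour over the whole range, a rule that by chance marks about 1 in 20. The contrast of Prkcd was 3.68 in noise area 8, against -0.23 to 1.31 in the other noise pairs. Without that area the difference between treatments was 0.71 (limma adjusted p = 0.757, with p too small because areas share animals). The contrast of Map1b was 3.53 in noise area 2, where its supporting region held 2 reads, against 0.88 to 1.86 in the others. Without that area the difference was -0.45 (limma adjusted p = 0.927).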

How the results depend on the processing

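The count of genes that differed between treatments was 0 in all 21 fits that left out 1 pair and in 16 of 18 other settings, and 2 with edgeR (Prkcd and Papolb, both higher) and 2 (Prkcd higher, Inpp4a lower) when, as chosen after seeing the data, only pairs whose neuron region had at least 1.5 times the reads were kept. The mock count of 920 became 470 with only genes of at least 5 reads and 445 with DESeq2, and ran from 806 to 928 leaving out 1 pair. The noise count of 277 became 140 with the olfactory receptor covariate and 151 with DESeq2, and ran from 181 (without area 7) to 292 leaving out 1 pair. Areas were paired as a block; with no replicate block the counts were 0, 886 and 236 for the difference, mock and noise, and with a replicate block by the number in the titles, which does not follow the areas, 0, 916 and 330. Of 1966 values of 51 named genes under an alternative, 1944 kept their direction and side of the threshold, 3 passed it and 19, in 7 genes, reversed. Prkcd passed with edgeR (3.17) and with deeper neuron regions (1.61), and Inpp4a with deeper neuron regions (-1.74). The olfactory receptor covariate reversed Sh3gl2 (-0.20), Tubb3 (0.075) and Hsp90aa1 (0.062). Deeper neuron regions reversed Atp2b2 (0.11), Map1b (0.055) and Tubb3 (0.11). The title-number block reversed Atp2b2 (0.062), Map1b (0.043) and Ubb (0.052). Atp2b2 also reversed with a pseudocount of 0 (0.031) and the negative probe subtracted (0.00066), and Sh3gl2 with noise neuron replicate 6 kept (-0.18). Leaving out 1 pair gave -0.26 to 0.085 for Apod, -0.0064 to 0.16 for Sh3gl2, -0.25 to 0.0035 for Atp2b2 and -0.33 to 0.079 for Tubb3. The causes were not tested. The median difference of all genes moved between -0.07 and 0.09 over the settings. With 7 noise pairs and few reads per gene, the median standard error of 0.33 limits what could be detected.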
